A study of Mus musculus with 12 samples.

Results

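Promoter accessibility of the cytosolic ribosomal protein genes was examined in embryonic fibroblasts (MEFs) and embryonic stem cells (mESCs) of the mouse. The genes were taken by name from the protein-coding genes of GENCODE M21 on GRCm38: every symbol made of Rpl or Rps followed by a number and at most 1 of the letters a, x, y or l, together with Rpsa, Rplp0, Rplp1 and Rplp2. This gave 80 of 21943 protein-coding genes, 49 for proteins of the large subunit (the stalk proteins Rplp0, Rplp1 and Rplp2 included) and 31 for proteins of the small subunit. The choice used names only and no measured value.

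Omni-ATAC-seq, in which the Tn5 transposase inserts adapters into open chromatin, was run on 6 libraries, 3 of MEFs (replicates 1, 2 and 4) and 3 of mESCs (replicates 1, 3 and 5). Each library was divided between 2 sequencers, the Illumina HiSeqX10 and the BGI DNBSEQ-G400, which made 12 samples in 4 groups of 3. Both cell types came from cultures on a C57/Bl6 background and were purified by flow cytometry before transposition, MEFs as THY1+ cells and mESCs as THY1-/SSEA1+/EPCAM+ cells. The platforms therefore differ within the same DNA libraries, whereas the cell types differ in the cells, in the sorting gate and in the sequencing depth kept by the study. The deposited tables held between 15.7 and 21.7 M reads in peaks per sample, and ribosomal protein gene peaks held 7 to 2051 reads per sample on BGI (median 461) and 7 to 1871 on Illumina (median 490). Promoters of all 6 mESC marker genes (Pou5f1, Nanog, Sox2, Esrrb, Zfp42 and Epcam) were more accessible in the mESC libraries, with log2 fold changes on BGI of 1.66 to 5.38. Of 7 MEF markers, 6 were less accessible in mESCs and Pdgfra was not called (log2 fold change 0.08 on BGI). In the tables made from 1 cell type, 4 of the 6 mESC markers had a peak in MEFs and 5 of the 7 MEF markers in mESCs, so the others entered the joint tables through the cell type in which they are high, and the direction at those genes was in part fixed by the peak filter.

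The cytosolic ribosome is built from a small subunit, which decodes the mRNA, and a large subunit, which forms peptide bonds. Each of its proteins is needed in nearly equal amount, so these genes are transcribed at high rates in growing cells of every type and are often taken as housekeeping references. Their mRNAs begin with an oligopyrimidine tract, the TOP motif, through which translation is controlled by the mTOR pathway, and many of the genes carry small nucleolar RNA (snoRNA) genes in their introns.

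RefSeq promoter sequences of GRCm38.p6, running from 250 bases before to 50 after a transcript start, were matched by symbol for 60 of the 80 genes. Among the genes without a matched sequence were Rpl3, Rpl7, Rpl8, Rpl17, Rpl21, Rpl23a, Rpl29, Rpl30, Rpl32, Rpl36, Rplp1, Rps14, Rps20, Rps27a and Rps29. The lines that follow show 100 bases before the start and 20 from the start onwards, read 5′ to 3′ on the gene's strand. Capitals mark a run of at least 8 C or T letters that covers the start, the ETS factor core CCGGAA on either strand, and the palindrome CTCGCGAG. The first 3 are the genes with the longest pyrimidine runs over the start, the next 3 are small subunit genes with such a run and an ETS core, and the last 2 had the highest and the lowest level among the 78 genes with a promoter peak on BGI, Rpl37 and Rpl10l, an intronless testis-expressed copy of Rpl10. In Rpl34 the ETS core overlaps the end of the pyrimidine run.

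Rpl7a: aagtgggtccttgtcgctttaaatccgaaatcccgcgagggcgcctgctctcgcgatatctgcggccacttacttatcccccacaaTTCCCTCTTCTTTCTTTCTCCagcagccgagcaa
Rpl27a: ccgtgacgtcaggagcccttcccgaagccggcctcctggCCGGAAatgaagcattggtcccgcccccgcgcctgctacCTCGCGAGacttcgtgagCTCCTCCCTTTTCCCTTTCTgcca
Rpl34: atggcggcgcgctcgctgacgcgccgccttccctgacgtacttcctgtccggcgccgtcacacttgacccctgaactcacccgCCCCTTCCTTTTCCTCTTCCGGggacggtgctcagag
Rps6: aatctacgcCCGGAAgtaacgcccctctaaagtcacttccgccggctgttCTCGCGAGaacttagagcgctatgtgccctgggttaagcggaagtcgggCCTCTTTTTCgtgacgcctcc
Rps10: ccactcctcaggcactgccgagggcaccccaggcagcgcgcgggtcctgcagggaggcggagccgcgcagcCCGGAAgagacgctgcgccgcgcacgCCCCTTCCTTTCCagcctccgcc
Rps18: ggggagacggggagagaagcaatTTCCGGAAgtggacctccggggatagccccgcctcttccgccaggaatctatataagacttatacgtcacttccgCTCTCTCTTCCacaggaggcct
Rpl37: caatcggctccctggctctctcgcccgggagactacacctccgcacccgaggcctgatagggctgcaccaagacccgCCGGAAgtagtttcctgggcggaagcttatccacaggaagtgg
Rpl10l: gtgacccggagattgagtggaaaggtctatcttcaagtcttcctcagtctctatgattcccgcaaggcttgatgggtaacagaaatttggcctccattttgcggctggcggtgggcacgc

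The stretches lie at chr2:26910707-26910826 on the plus strand for Rpl7a, chr7:109519095-109519214 plus for Rpl27a, chr3:130730318-130730437 minus for Rpl34 and chr4:86857348-86857467 minus for Rps6. Those of Rps10, Rps18, Rpl37 and Rpl10l lie at chr17:27635225-27635344 minus, chr17:33955646-33955765 minus, chr15:5116513-5116632 plus and chr12:66284382-66284501 minus. The pyrimidine run over the start was 21 bases long in Rpl7a, 20 in Rpl27a and Rpl34, 13 in Rps10, 11 in Rps18 and 10 in Rps6. A run of at least 8 pyrimidines covered the annotated start in 16 of the 60 genes (26.7%) and in 3.43% of 16454 other protein-coding genes. Anywhere within 50 bases of the start such a run was found in 47 genes (78.3%) against 34.5% of the others. Whether a run away from the start is the TOP motif was not tested. The RefSeq start lay within 10 bases of a GENCODE start in 32 of the 60 genes. The start base itself was a C in 31.7% of the 60 genes and in 14.0% of the others.

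Short factor cores were counted in the same windows on both strands. Of the 58 genes with a window and a promoter peak on BGI, 49 had the RefSeq start inside that peak. The ETS core CCGGAA occurred in 32 of 60 windows (53.3%) against 19.5% of the other promoters, and the YY1 core ATGGCG in 17 (28.3%) against 11.4%. The palindrome CTCGCGAG was found in 5 windows (8.33%) against 1.27%. These 3 letter strings were thus more frequent in the ribosomal protein promoters, while for others the shares lay closer together. GGGCGG, the core of Sp1 sites, occurred in 58.3% against 47.8%, the NRF1 core GCATGCGC in 3.33% against 3.73% and the E-box CACGTG in 6 of the 60 windows against 8.04%. TATAAA occurred in 5 windows (8.33%, others 12.9%) and CCAAT, the NF-Y core, in 31.7% (others 38.7%). Within the 502-bp peaks themselves the ETS core was present in 62.8% of 78 ribosomal protein peaks and 34.5% of the other promoter peaks, and the YY1 core in 38 of 78 and in 3692 of 14785. Overlaps between matches of different motifs were not removed, and a match is a match of letters, not an observation of a bound factor.

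A promoter peak was defined as a deposited peak within 1 kb of the start of any protein-coding transcript, and where several qualified the most accessible one was taken. On BGI and on Illumina 78 of the 80 genes had such a peak. The exceptions were Rpl3l, the muscle paralogue of Rpl3, and Rpl39l, the testis-expressed paralogue of Rpl39. In the table made from MEF samples alone Rpl10l was also without a peak, which left 77 genes, and the table of mESC samples held 78. Of the 78 genes on BGI, 57 had a single promoter peak, 18 had 2, 2 had 3 and Rpl3 had 5. No peak was removed by the filter on low counts. A peak entered these tables only if it passed the study's score cut in at least 2 samples, and Rpl10l entered through the mESC samples, so its difference between the cell types was in part fixed by that step. Another 14789 protein-coding genes on BGI and 14857 on Illumina had promoter peaks and served as the comparison.

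The peak calls of single samples placed nearly all of these genes in open chromatin. A peak lay within 1 kb of the start of 78 or 79 of the 80 genes in each MEF sample and of all 80 in each mESC sample, while 69.9% to 73.3% of the 21863 other protein-coding genes had one. Rpl10l was called in 6 samples, all of them mESC, and Rpl3l in 8, and every other gene was called in all 12. Rpl39l was among those called in all 12, with fold enrichments of 3.32 to 8.91 over the caller's background, but its peaks did not reach the deposited tables. Of the lists of reproducible peaks, the MEF list from BGI covered 77 of the 80 genes and the one from Illumina 76, and the mESC lists covered 78 and 77, against 62.2% to 65.1% of other genes. Beside the 3 paralogues, Rpl32 was missing from the MEF Illumina list and Rpl23 from the mESC Illumina list.

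Summits sat just before the transcript start. Over the 12 samples the median distance from the nearest coding start to the summit of the strongest peak was between -48.5 and -31 bp for the ribosomal protein genes and between -32 and -25 bp for the other genes, where negative values are upstream. Between 67.9% and 82.5% of the ribosomal protein summits lay within 100 bp of the start, compared with 56.3% to 59.9% of the others. Fold enrichments had sample medians of 31.3 to 39.3 against 25.5 to 34.9. A few genes stood apart from this arrangement: the median summit was at -528.5 bp for Rpl4, -525 bp for Rpl10 and -317.5 bp for Rpl32, and at 414 bp, downstream, for Rpl35. At Rpl35 the start in RefSeq was 493 bases from that in GENCODE. The BGI peak, chr2:39004989-39005490, covered the RefSeq start (39005131) but not the GENCODE start, so the summit distance of Rpl35 depends on the annotation used.

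**Figure D1:**
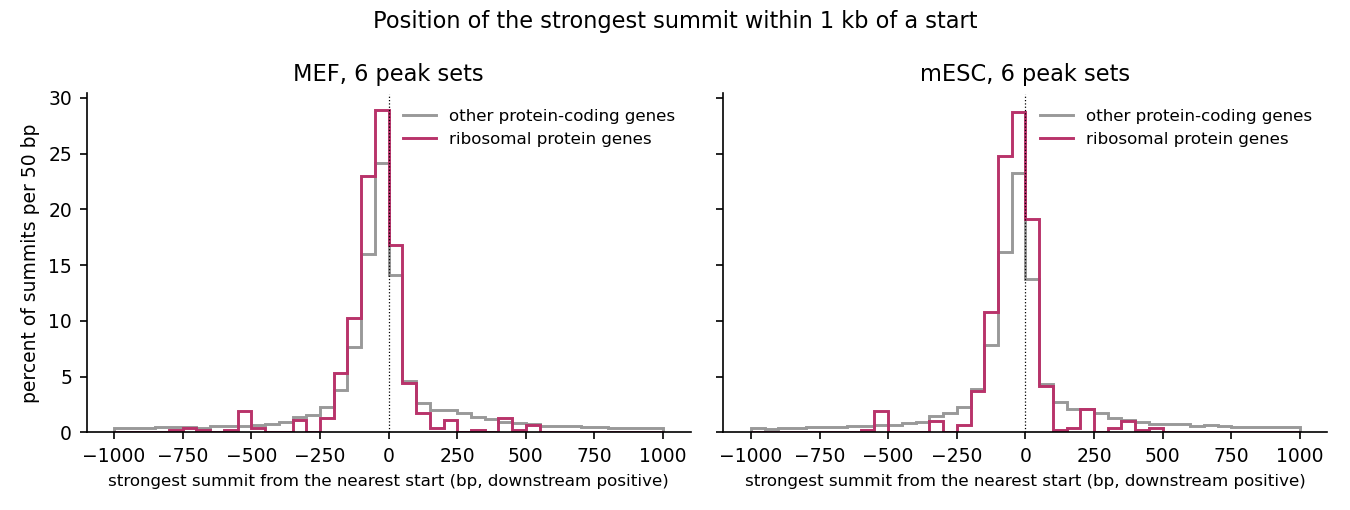
Percent of summits (y axis) by distance from the nearest coding transcript start in bp (x axis, bins of 50 bp, negative upstream) for ribosomal protein genes and other protein-coding genes, with the 6 peak sets of each cell type pooled in a panel. The ribosomal protein summits were concentrated just upstream of the start, with 67.9% to 82.5% within 100 bp in single samples.

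Levels were expressed as reads in the peak per 1000000 reads in all peaks of the table (CPM). Every peak of the BGI and Illumina tables is 502 bp wide, so levels can be compared between genes. The ribosomal protein promoters had a median level of 26.3 CPM on BGI over all 6 samples, against 22.3 for other promoter peaks and 6.98 for all 91354 peaks. On Illumina the medians were 27.2, 25.4 and 6.99 CPM. They were therefore not exceptional among promoters: the median gene stood at percentile 59.1 of all protein-coding promoters on BGI and 54.1 on Illumina, with 17 genes above the 75th percentile on either platform. The most accessible promoters on BGI were those of Rpl37 (86.3 CPM), Rps19 (80.2), Rpl13a (74.2) and Rps21 (69.5). Rpl10l (4.23 CPM), Rps4x (9.48), the X-linked gene of a small subunit protein, Rpl6 (10.6), Rpl8 (11.2) and Rpl19 (13.4) had the lowest levels. Leaving out Rpl10l, the genes thus spanned a range from 9.48 to 86.3 CPM. The spread between replicates was close to that of other promoters except in mESCs on Illumina, where it was wider, with median coefficients of variation of 7.62% against 7.41% in MEFs and 8.43% against 8.54% in mESCs on BGI, and 7.003% against 6.86% and 9.87% against 7.73% on Illumina. In a bulk library the share of cells with an open promoter cannot be told apart from how open it is in each cell.

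The genes were spread over the genome, with 14 on chromosome 7, 7 each on chromosomes 9, 11 and 17, and 4 on X (Rpl10, Rpl36a, Rpl39 and Rps4x). A snoRNA gene lay within 29 of the 80 genes (36.25%) and within 1.04% of other protein-coding genes. At 16 of the 78 genes with a peak on BGI, a coding gene on the opposite strand started within 1 kb, for example Ndufa7 10 bp from Rps28, Trappc4 33 bp from Rps25, Sphk2 69 bp from Rpl18 and Med22 87 bp from Rpl7a. Reads under such shared peaks cannot be assigned to either gene. The peaks had a median GC content of 59.2% on BGI, with a range of 42.6% to 67.3%, against 62.5% for other promoter peaks and 51.0% for all peaks.

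Most ribosomal protein promoters differed little between the cell types, and more of the called ones were less than more accessible in mESCs. On BGI 6 genes were more accessible in mESCs and 32 less accessible, out of 78, by edgeR's quasi-likelihood test at an adjusted p below 0.05. On Illumina the counts were 7 and 31. The 48.7% called on either platform compare with 84.1% of all BGI peaks (40.9% higher and 43.2% lower) and 84.6% of all Illumina peaks (42.1% and 42.5%), and with 66.2% and 68.3% of other promoter peaks. The median log2 fold change, mESC over MEF, was -0.17 on BGI (quartiles -0.36 and 0.00) and -0.17 on Illumina. Other promoters had medians of -0.18 and -0.17, and all peaks -0.08 and -0.03, so the small shift below 0 was shared with promoters at large. The distribution was narrower than that of other promoters. On BGI 65 of 78 genes (83.3%) lay within 0.5 of no change, against 59.5% of other promoters and 22.5% of all peaks. On Illumina 66 of 78 (84.6%) did, against 60.4% of other promoters.

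**Figure D2:**
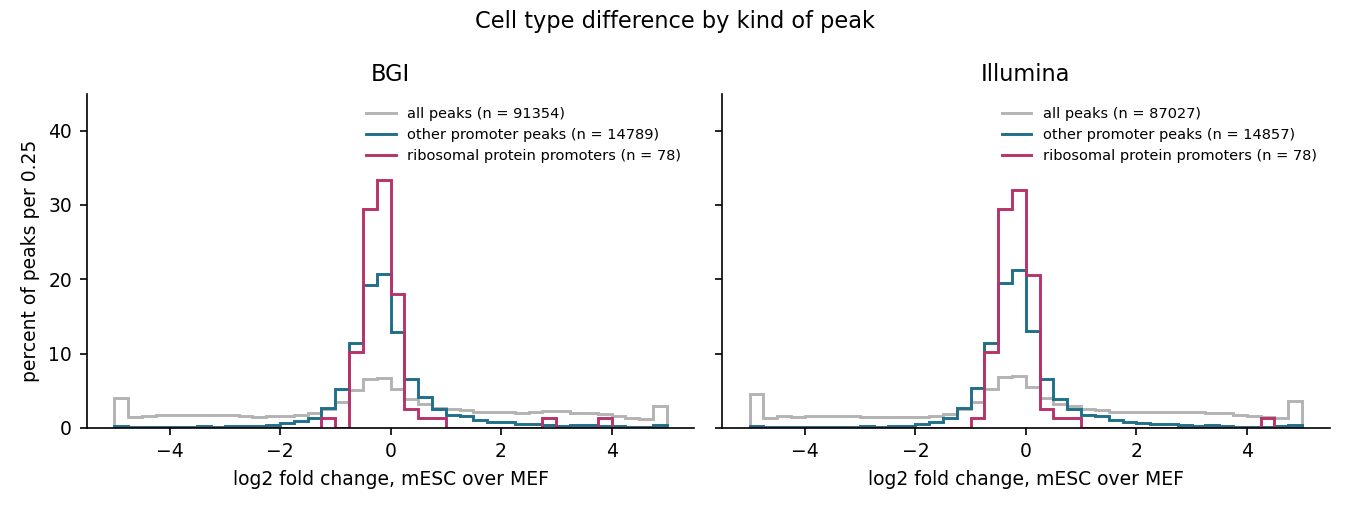
Percent of peaks (y axis) by log2 fold change, mESC over MEF (x axis, bins of 0.25, values beyond 5 in either direction placed in the end bins), for ribosomal protein genes, other promoters and all peaks on each platform. The ribosomal protein genes formed a narrow peak, with 83.3% on BGI and 84.6% on Illumina within 0.5 of no change.

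A change of at least 1 on the log2 scale was called at 3 genes on BGI, 2 higher and 1 lower, where 63.0% of all peaks and 17.1% of other promoters passed. On Illumina 1 gene passed, against 61.8% of all peaks. In 10 genes the 3 mESC samples were all above the 3 MEF samples on BGI, in 28 they were all below, and in 40 the groups overlapped, while 85.1% of all BGI peaks did not overlap. The Illumina counts were 10, 25 and 43, against 85.6% of all peaks without overlap. Of 47 large subunit genes 4 were called higher and 20 lower on BGI, and of 31 small subunit genes 2 and 12, so that 51.1% and 45.2% were called against 84.1% of all peaks and 66.2% of other promoters. The order turned on Illumina, where 44.7% of the large and 54.8% of the small subunit genes were called. The 4 X-linked genes had log2 fold changes of -0.15 to -0.08 on BGI, with 0 of 4 at an unadjusted edgeR p below 0.05, against 84.7% of all peaks and 67.4% of other promoters. The calls depended on single libraries and on scaling. On BGI the lower count was 20 (25.6%) without MEF replicate 1, when the share of other promoters called lower was 36.8%. On Illumina it was 47 (60.3%), with 4 higher, without mESC replicate 3, when that share was 52.7%. Scaling to the down-sampled depths in place of TMM gave 11 higher and 15 lower on BGI, against 43.5% and 38.9% of all peaks (82.4% in all) and 27.7% and 30.1% of other promoters. On Illumina it gave 14 and 17, against 44.5% and 38.3% of all peaks (82.9% in all). That scaling moved the median of all peaks to 0.06 and 0.09, and the genes' median relative to all peaks was -0.09 on BGI and -0.14 on Illumina under either scaling.

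**Figure D3:**
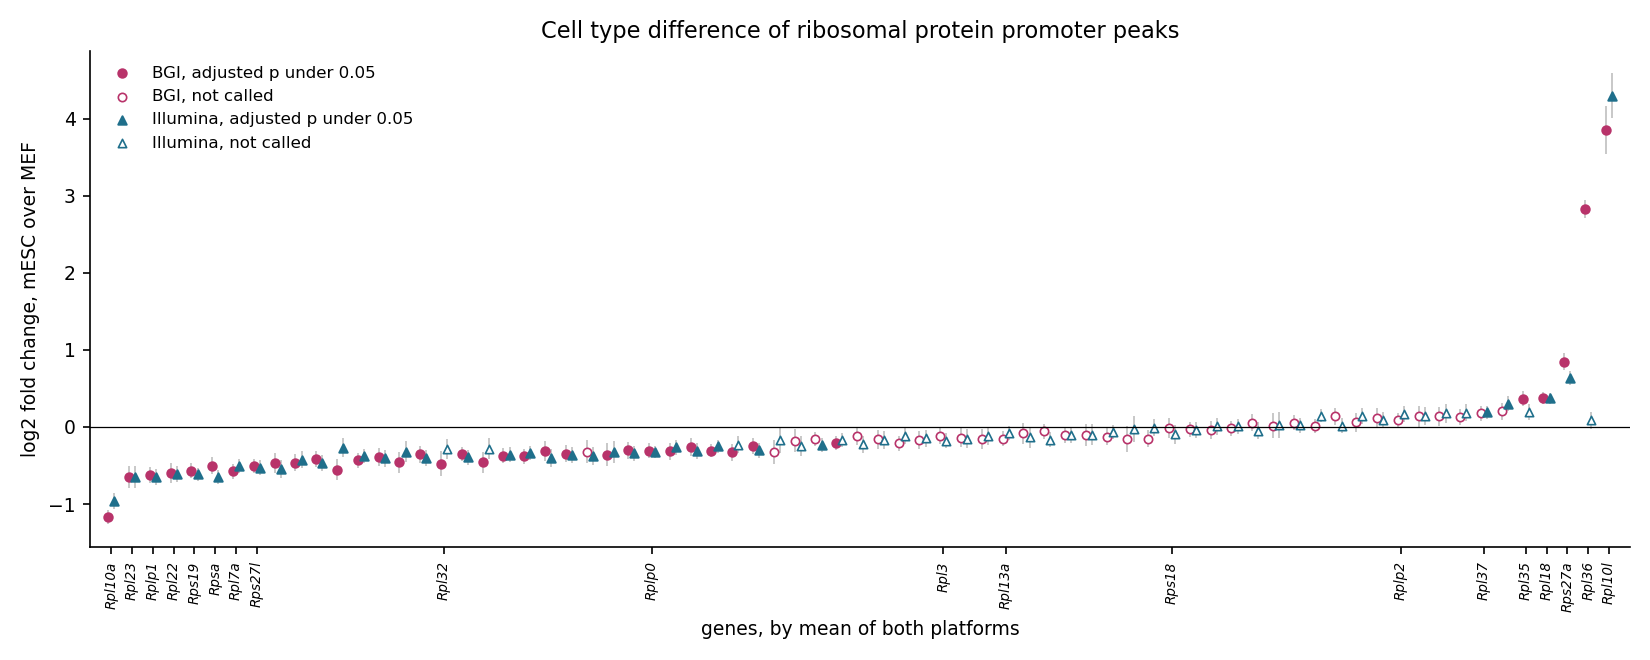
Log2 fold change, mESC over MEF, with its standard error for ribosomal protein genes on BGI and on Illumina, ordered by the mean of both, with the genes described in the text named on the x axis. Most genes lay between -0.5 and 0.5, with Rpl10l and Rpl10a at the ends on Illumina and the distal peak of Rpl36 beside Rpl10l on BGI.

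Calls in one direction on both platforms were made at 4 genes for higher and 28 for lower accessibility in mESCs, none was called in opposite directions, 6 were called on BGI only, 6 on Illumina only and 34 on neither. The same rule called 19.7% of 14658 other promoters higher and 40.8% lower on both platforms, against 5.13% and 35.9% of the ribosomal protein genes. The platforms read the same libraries, so their concordance is a repeat of sequencing and not of the cells.

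The largest increase was at Rpl10l, which encodes a large subunit protein and replaces Rpl10 in male meiosis. The Illumina peak of Rpl10l, chr12:66283927-66284428, coincided only in part with the BGI peak. The BGI peak, at chr12:66284186-66284687, overlapped the gene's single exon. On BGI it had 0.3, 0.6 and 0.6 CPM in MEF replicates 1, 2 and 4 and 7.1, 9.2 and 7.5 CPM in mESC replicates 1, 3 and 5. On Illumina the values were 0.5, 0.5 and 0.3 CPM in MEFs and 8.6, 10.4 and 7.9 CPM in mESCs. The log2 fold change was 3.85 ± 0.31 (SE) on BGI, with an edgeR adjusted p of 2.83e-09, and 4.30 ± 0.29 on Illumina (1.97e-10). The peak entered through the mESC samples, so this direction was in part fixed by the peak filter. The level of Rpl10l over all BGI samples was nonetheless the lowest of the 78 genes, at percentile 1.19 of all protein-coding promoters.

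Among canonical genes the increases were smaller, and at Rps27a and Rpl18 the groups did not overlap on either platform. Rps27a, whose product is made as a fusion with ubiquitin, had 20.9, 16.8 and 21.2 CPM in MEFs and 39.5, 36.9 and 34.6 CPM in mESCs on BGI, a log2 fold change of 0.85 ± 0.11 with an edgeR adjusted p of 1.2e-06, and 0.64 ± 0.09 on Illumina. Its peak, at chr11:29547982-29548483, is shared with Clhc1, which starts 83 bp away on the other strand. Rpl18, of the large subunit, rose by 0.38 ± 0.08 on BGI and 0.37 ± 0.08 on Illumina at its stronger peak, chr7:45715049-45715550. A weaker peak over another Rpl18 start, chr7:45717799-45718300, had log2 fold changes of -0.06 and -0.07 and was not called, so the direction at Rpl18 depends on the peak chosen. Both peaks also overlap untranslated exon sequence of Sphk2 on the other strand.

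The largest decrease was at Rpl10a, a protein of the mobile L1 stalk beside the tRNA exit site. The peak at chr17:28328192-28328693 covered a start of the gene and an exon of an antisense lncRNA, CT025652.2, and had 42.8, 42.6 and 46.9 CPM in MEFs and 20.9, 21.1 and 19.8 CPM in mESCs on BGI. On Illumina the values were 51.1, 48.0 and 51.0 CPM in MEFs and 22.4, 28.1 and 29.2 CPM in mESCs. Every mESC sample was below every MEF sample on either platform, with log2 fold changes of -1.17 ± 0.09 (edgeR adjusted p = 2.67e-09) and -0.96 ± 0.10 (4.09e-08). A second peak 379 bp from a start changed likewise, by -0.95 on both platforms.

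Of the other large subunit genes that fell, Rpl23 (chr11:97782182-97782683) had 16.5, 15.5 and 17.3 CPM in MEFs and 9.0, 12.7 and 11.1 CPM in mESCs on BGI, with a log2 fold change of -0.65 ± 0.15. Rpl22 (chr4:152325576-152326077), whose product also has a paralogue, Rpl22l1, had 27.3, 25.5 and 32.1 CPM against 16.5, 23.6 and 18.7 CPM, a change of -0.59 ± 0.13. Rpl7a (chr2:26910395-26910896), which had the longest pyrimidine run in the sequences above, had 36.4, 32.3 and 34.5 CPM against 26.4, 23.9 and 22.2 CPM, a change of -0.58 ± 0.10. All 3 peaks overlapped coding and untranslated exon sequence of their gene, and that of Rpl7a also covered the start of Med22. In none of these genes did the groups overlap on either platform, and the Illumina changes were -0.65, -0.61 and -0.50.

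The stalk genes, whose products recruit the elongation factors to the large subunit, were not all called. Rplp1 (chr9:61914385-61914886) had 30.3, 26.5 and 30.3 CPM in MEFs and 18.3, 20.3 and 20.6 CPM in mESCs on BGI, a log2 fold change of -0.62 ± 0.11 (edgeR adjusted p = 3.02e-05; Illumina -0.65). Rplp0, which anchors the stalk and is a common reference gene, had 57.8, 52.3 and 54.4 CPM against 45.2, 51.7 and 42.1 CPM, a change of -0.31 ± 0.10 on BGI (0.00696) and -0.33 ± 0.08 on Illumina (0.000756). Its BGI call was lost with down-sampled depths (-0.17) and without MEF replicate 1 (-0.22). Rplp2 was not called, with 0.09 on BGI and 0.17 on Illumina.

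In the small subunit, Rps19, the gene most often mutated in Diamond-Blackfan anaemia, had 94.0, 85.8 and 102.1 CPM in MEFs and 65.1, 72.8 and 61.4 CPM in mESCs on BGI at chr7:24884143-24884644. Its log2 fold change was -0.56 ± 0.09 there, with an edgeR adjusted p of 1.78e-05, and -0.61 ± 0.08 on Illumina (1.58e-06), with no overlap of the groups. Rpsa, also known as a laminin receptor, had 37.8, 38.8 and 39.2 CPM against 25.9, 34.0 and 25.5 CPM at chr9:120127457-120127958, a change of -0.50 ± 0.11 on BGI and -0.65 ± 0.09 on Illumina. Rps27l, a p53-induced paralogue of Rps27, had 34.8, 33.5 and 38.5 CPM against 26.3, 26.6 and 26.0 CPM at chr9:66945732-66946233, a change of -0.50 ± 0.09 and -0.53 ± 0.09. The groups of both genes were apart on either platform, and Rps27l was thus lower in mESCs where the paralogue Rpl10l was higher.

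**Figure D4:**
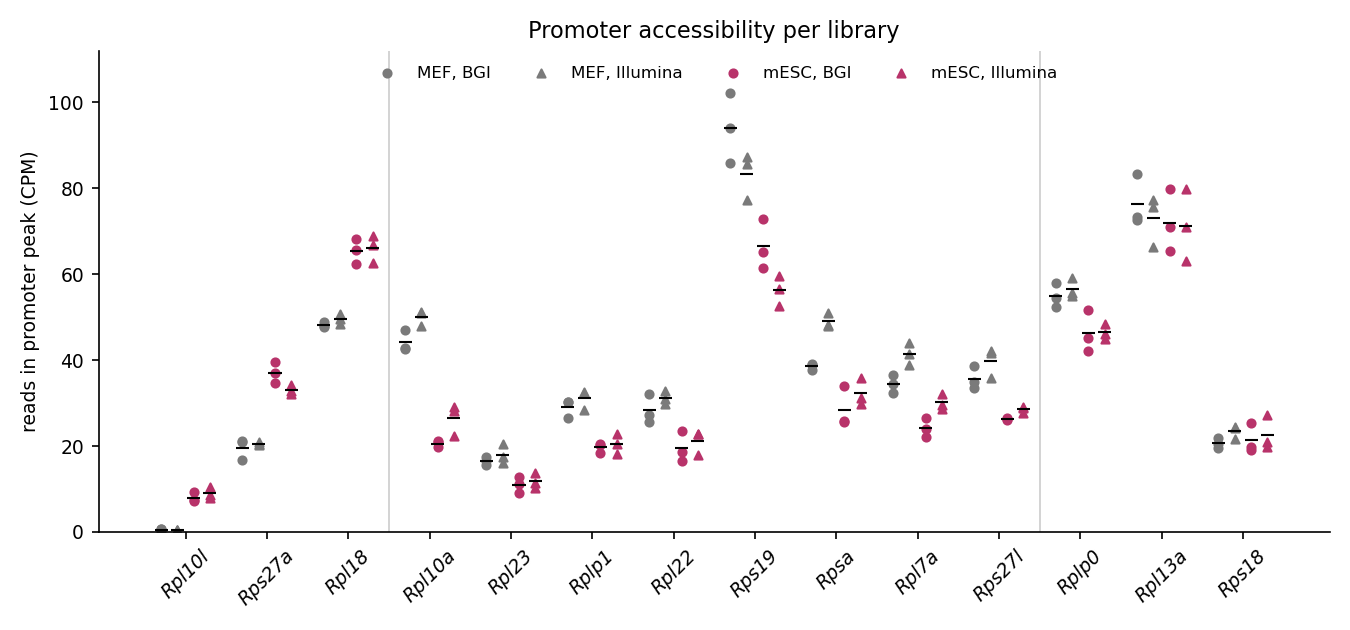
CPM in each library (points) with the group mean (black line) for 14 ribosomal protein promoters, MEF and mESC on BGI and on Illumina. The mESC points lie above all MEF points at Rpl10l, Rps27a and Rpl18 and below them at the 8 genes from Rpl10a to Rps27l, whereas they overlap at Rpl13a and Rps18.

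Several reference genes of expression studies are in the set. Rpl13a had 83.3, 73.3 and 72.6 CPM in MEFs and 70.9, 79.7 and 65.3 CPM in mESCs on BGI, with overlapping groups and a log2 fold change of -0.15 ± 0.10 (edgeR adjusted p = 0.149; Illumina -0.08, 0.441). Rps18 had 19.4, 20.5 and 21.9 CPM against 19.7, 25.4 and 19.1 CPM, a change of -0.01 ± 0.13 (0.941; Illumina -0.09, 0.494). The sign at both genes depended on the scaling, as at Rps18 with 0.13 on BGI for down-sampled depths. Rpl32, one of the 3 genes with the lowest GC content (42.6% on BGI), changed by -0.47 ± 0.16 on BGI (0.0103) and by -0.28 ± 0.13 on Illumina (0.055), and its peak began 66 bp from the nearest coding start. The BGI call at Rpl32 was lost with down-sampled depths (-0.33) and without MEF replicate 4 (-0.32) or mESC replicate 5 (-0.37). Rpl37, with the highest level, had 78.8, 77.7 and 81.0 CPM against 85.2, 107.7 and 87.8 CPM on BGI, where it was not called (0.18 ± 0.09, 0.0907), and 0.19 ± 0.09 on Illumina (0.0482).

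At some genes the peak chosen decided the value, and Rpl36 and Rpl3 are given for that reason, after their values were seen. On BGI the most accessible peak within 1 kb of Rpl36, chr17:56612008-56612509, lay 907 bp from the nearest start over no annotated gene, with 5.90 ± 0.43 CPM (SD, n = 3) in MEFs and 44.0 ± 2.64 CPM in mESCs. Its log2 fold change was 2.83 ± 0.12, and 3.20 ± 0.13 on Illumina, where it was not the strongest peak. The peak over the Rpl36 start, chr17:56613128-56613629, changed by 0.32 on BGI, with an edgeR adjusted p of 0.0177, and by 0.09 on Illumina (0.455). The higher count on BGI thus includes a region upstream of the promoter proper. At Rpl3 the strongest of the 5 peaks was not called (-0.12 on BGI), while a weaker peak 311 bp from a further coding start, chr15:80091056-80091557, was higher in mESCs by 1.29 on BGI and 1.16 on Illumina.

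Other genes of the translation machinery were described by the same rule. Of 7 ribosomal protein genes outside the name pattern, among them Rps3a1, Rpl36al, Rpl22l1, Rpl7l1, Fau and Rack1, 4 were called on BGI, all of them lower in mESCs, and the list's median log2 fold change was -0.27. The share called, 57.1%, was below the 66.2% of other promoters and the 84.1% of all peaks, and with down-sampled depths 1 of the 7 was called on either platform (median -0.13 on BGI). They included Rpl22l1 (-0.49), Fau (-0.35) and Rps3a1 (-0.27), and 4 were called lower on Illumina too. Of 16 TOP mRNA genes that encode no ribosomal protein, 10 were called on BGI (median -0.35) and 9 on Illumina (median -0.31), all of them lower, among them Pabpc1, the poly(A)-binding protein (-0.89), and Eef1g, an elongation factor subunit (-0.38). These shares were 62.5% and 56.3%, against 66.2% and 68.3% of other promoters, and with down-sampled depths 1 TOP gene was higher and 6 were lower on BGI (median -0.21). Among 18 ribosome biogenesis genes 2 were higher and 4 lower on BGI (33.3%) and 2 and 7 on Illumina, with Pes1, needed for large subunit maturation, at 1.33 on BGI. With down-sampled depths 4 biogenesis genes were higher and 3 lower on either platform, with medians of -0.04. The 77 mitochondrial ribosomal protein genes with a peak on BGI had 7 higher and 28 lower (45.5%) and a median of -0.12, with Mrps22 at -0.85, and on Illumina 7 of 78 were higher and 37 lower. Down-sampled depths turned the sign of their BGI median to 0.03, with 11 higher and 16 lower, and gave 10 and 21 on Illumina. Among 12 other housekeeping genes 1 was higher and 4 lower on BGI (41.7%), and 1 and 6 on Illumina, with BGI changes of -1.55 at Gusb and -1.42 at B2m, both below the -1.17 of Rpl10a, and down-sampled depths gave 1 and 3 on BGI and 3 and 3 on Illumina.

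The same libraries on both platforms gave nearly the same levels. The ratio was computed as log2 of BGI over Illumina within a cell type, in tables with peaks of up to 1797 bp. Without regard to which samples share a library, edgeR called 0 genes higher and 1 lower on BGI in MEFs out of 77, against 0.110% and 4.01% of all peaks (4.12% in all). The 1 gene was Rpsa, with 40.5, 41.2 and 41.3 CPM on BGI and 48.3, 48.9 and 51.9 CPM on Illumina and a log2 ratio of -0.30 (adjusted p = 0.0335). That call was lost without MEF replicate 1 or 2, when 0 of all peaks were called, while 5 genes (6.49%) were called lower without MEF replicate 4, against 9.43% of all peaks. DESeq2 called 1 higher and 4 lower, against 1.12% and 11.7% of all peaks to which it gave an adjusted p (12.8% in all). The 5 genes were 6.49% of the set, against 28.3% of other promoters. An unadjusted edgeR p below 0.05 was found at 10 genes (13.0%), against 15.2% of all peaks and 36.0% of other promoters. In mESCs edgeR and DESeq2 called none of 78 in either direction, against 0.0403% and 3.13% of all peaks (3.17% in all) by edgeR and 0.0756% and 4.76% (4.84% in all) by DESeq2. Of these 78 genes 6 (7.69%) had an unadjusted edgeR p below 0.05, against 13.0% of all peaks and 30.2% of other promoters. The median ratio was -0.07 in MEFs and -0.09 in mESCs, between those of other promoters (-0.11 and -0.13) and of all peaks (0.07 and 0.01).

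With the library as a block, which the design provides, more genes were called. In MEFs 2 were higher on BGI and 21 lower of 77, against 14.0% and 15.4% of all peaks (29.4% in all). In mESCs 1 was higher and 14 lower of 78, against 5.82% and 15.6% (21.4% in all). These shares, 29.9% and 19.2%, were near those of all peaks and below the 47.4% and 45.9% of other promoters. Lower values in both cell types were called at 9 genes: Rpl5, Rpl7a, Rpl9, Rpl10a, Rpl17, Rpl19, Rps16, Rps29 and Rpsa. They were 11.7% of the 77 genes with a peak in both tables, against 34.7% of other promoters. The counts again rested on single libraries. In MEFs they were 0 and 11 without replicate 1, 1 and 10 without replicate 2 and 2 and 27 without replicate 4, and in mESCs 1 and 11 without replicate 1, 0 and 6 without replicate 3 and 2 and 13 without replicate 5. In the same fits all peaks moved too, with 18.2%, 17.8% and 24.6% called in MEFs and 16.8%, 13.7% and 15.8% in mESCs. In mESCs the largest ratios were at Rpl10a (-0.43, edgeR adjusted p = 3.32e-09) and Rpl7a (-0.38, 3.09e-08). Rpl5, which binds Mdm2 together with Rpl11, had a ratio of -0.30 (0.000237). Genes higher on BGI included Rps19 in mESCs (0.13, 0.00855) and, in MEFs, Rpl27 (0.18). With the block, the log2 ratio of every gene was below 0.5 in size.

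The ratio moved with base composition. Across the genes Spearman's rho between GC content and the ratio was -0.32 in MEFs (77 genes) and -0.27 in mESCs (78 genes), weaker than -0.72 and -0.71 over other promoter peaks, which extend to higher GC contents and share the same libraries. In the BGI table the 3 genes with the highest GC content were Rpl7a, Rps10 and Rpsa, and the 3 with the lowest Rps27a, Rpl32 and Rps26. When an offset for GC content was added to the block, the ratio of Rpsa in MEFs went from -0.30 to -0.08 and that of Rpl7a from -0.28 to 0.00, whereas that of Rpl17 went from -0.36 to -0.38 and that of Rpl37 from 0.11 to 0.26. The counts became 11 higher and 12 lower in MEFs, against 6.30% and 6.47% of all peaks (12.8% in all), and 7 and 9 in mESCs, against 4.38% and 4.26% (8.64% in all). These shares, 29.9% and 20.5%, were near the 27.0% and 19.7% of other promoters in the same fits.

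**Figure D5:**
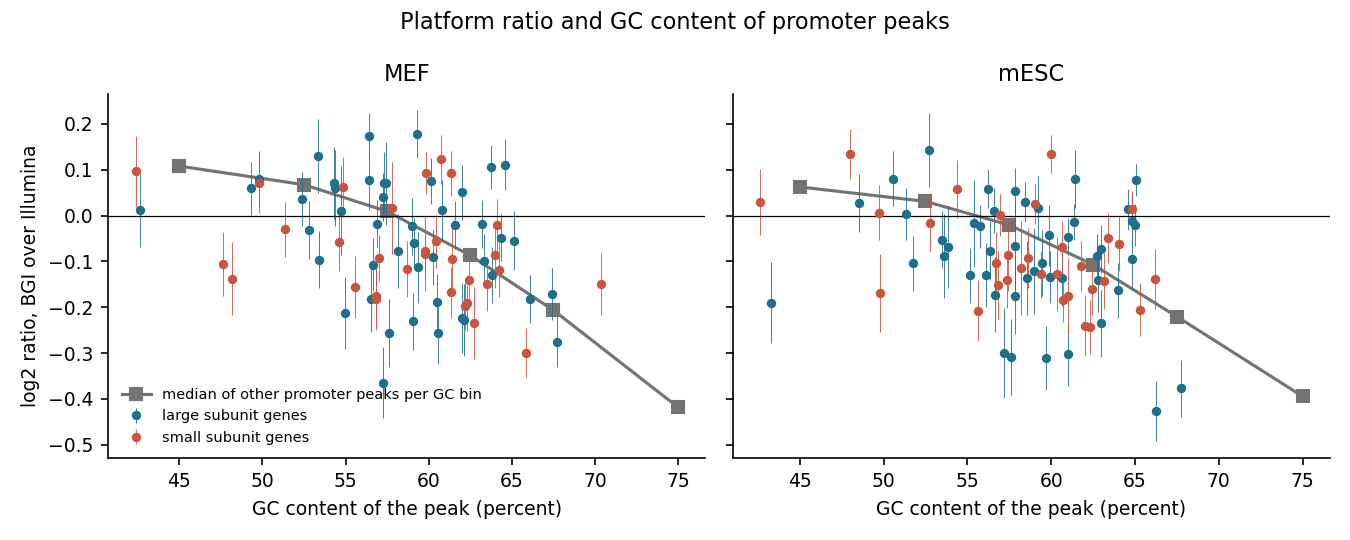
Log2 ratio of BGI over Illumina with the library as a block (y axis, points with standard errors for ribosomal protein genes) against GC content of the peak in percent (x axis), with medians of other promoter peaks per GC bin as grey squares (the bin from 70 to 90 drawn at 75). Both fell with GC content, and all ribosomal protein genes lay within 0.5 of no difference.

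The cell-type change itself was compared between platforms with an interaction term. By edgeR, and also by DESeq2, 0 of the 78 genes passed, as did 0% of the 91354 peaks by edgeR, and 2 genes (against 2.64% of all peaks) had an unadjusted edgeR p below 0.05. With the library as a block 1 gene, Rpl35 of the large subunit, passed, against 0.432% of all peaks and 1.58% of other promoters. Its fitted term of 0.30 holds a shift common to all peaks, whose median was 0.11 with TMM scaling. With RLE size factors that median was -0.01, the term at Rpl35 was 0.18 and 0 genes passed, and down-sampled depths gave 0.01, 0.19 and 0. The call at Rpl35 was also lost without any 1 of the 6 libraries, with adjusted p-values of 0.0647 to 0.219. The term itself stayed between 0.24 and 0.34, and calls over all peaks fell from 395 to between 0 and 67 in 5 of these fits and were 394 without MEF replicate 4. Rpl35 had 37.7, 35.0 and 33.3 CPM in MEFs and 49.2, 51.1 and 42.9 CPM in mESCs on BGI, a log2 fold change in the fit of that platform of 0.37 ± 0.10, and 42.3, 39.5 and 39.4 CPM against 44.7, 55.8 and 42.0 CPM on Illumina, a change of 0.19 ± 0.10. The mESC samples were all above the MEF samples on BGI, and the groups overlapped on Illumina.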

How the data were processed

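Per the study's methods, the authors cut Illumina reads to 100 bp, trimmed adapters, aligned to GRCm38.p6 (mm10), removed duplicates, mitochondrial reads and alignments with mapping quality under 10, and down-sampled to 60 M reads per MEF sample and 45 M per mESC sample. They called peaks in each sample with MACS2 at a p threshold of 0.01, and kept peaks with a depth-normalised score of at least 3 in at least 2 samples. The deposited count tables hold raw read counts per peak, one table per platform (columns marked BGI, or unmarked for Illumina) and one per cell type with both platforms. The deposited peak calls of each sample give a score (10 times the −log10 p, as a whole number), a ratio (fold enrichment of the summit over background) and −log10 p and q values.

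CPM was the count per 1000000 reads in the table's peaks, without further scaling. Counts were fitted over all peaks of a table with edgeR 4.0.16 (TMM, filterByExpr, robust quasi-likelihood, R 4.3.3), Benjamini-Hochberg adjustment over all peaks and a threshold of 0.05, with DESeq2 1.42.0 as an alternative, and the code was tested on simulated data. Sequences and figures used pysam 0.24.0 and matplotlib 3.10.9. The SE of an edgeR fit was derived as the size of the log2 fold change divided by the square root of the test's F statistic. The intervals from counting reads are not given, since replicates set the error. GC content could not be read for a few peaks on unplaced scaffolds. The cell types share no libraries, so no pairing was used between them. The samples of a library were paired between platforms, since the labels give them 1 number and the study divided each library: deviations from the group means correlated at 0.618 to 0.837 (MEF) and 0.515 to 0.724 (mESC) within libraries, and at -0.676 to 0.293 and -0.510 to -0.115 between them. The study calls the libraries biological replicates. The name rule of the set used no measured value, but the set and the lists were chosen with earlier results of these data known. Named were the genes with the largest changes called on both platforms, up to 8 in each direction, the 4 with the lowest platform p in each direction and cell type, the 5 highest and 5 lowest levels, the 3 highest and 3 lowest GC contents, reference genes and paralogues, and genes with no peak. Of each other list, values were given for at most 4 genes. Rps4l, a paralogue on that list, was not analysed here as GENCODE M21 annotates it as a pseudogene. Some genes that the rule names are not reported here.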

Additional observations from a re-analysis of the deposited data

Results flagged for a closer look

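Rpl35 was picked out because its change between the cell types differed between the platforms: with the library as a block, the fitted interaction term was 0.30 on the log2 scale (edgeR adjusted p = 0.0286), in a fit whose median over all peaks was 0.11. In separate fits the changes of mESC over MEF were 0.37 on BGI and 0.19 on Illumina. With RLE size factors in the blocked fit the term was 0.18 (adjusted p = 0.611) and with down-sampled depths 0.19 (0.571), so the call was lost under both. Without the block the unadjusted p was 0.0702. The Rpl35 peak lay 134 bp from the GENCODE start on BGI, covered the RefSeq start and had a GC content of 64.3%.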

How the results depend on the processing

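Of 734 values of named genes recomputed under alternatives, 652 kept their direction and side of the threshold, 34 gained and 33 lost a call (9 of these without the fold rule) and 15 changed sign, 13 of them at genes not called in the main comparison. With DESeq2 or its size factors Rps18 on BGI was 0.029, with a mean count of at least 50 it was 0.018, with down-sampled depths 0.13 (Illumina 0.035, and Rpl13a 0.046), and leaving out 1 library gave -0.13 to 0.074. Rpl13a on Illumina ranged from -0.22 to 0.013. The peak whose centre was nearest to a start gave -0.060 and -0.068 for Rpl18. Down-sampled depths changed the counts of higher and lower genes in mESCs to 11 and 15 (BGI) and 14 and 17 (Illumina). Thus 42.3% and 45.2% of called genes were higher in place of 15.8% and 18.4%, in fits that called 82.4% and 82.9% of all peaks. The fold rule changed the counts to 2 and 1 (BGI) and 1 and 0 (Illumina), against 63.0% and 61.8% of all peaks. Leaving out 1 library gave 6 to 8 and 20 to 32 on BGI, and 4 to 9 and 25 to 47 on Illumina. Of other promoters, these fits called 20.5% to 22.2% higher and 36.8% to 44.8% lower on BGI. On Illumina they called 19.7% to 21.9% higher and 40.7% to 52.7% lower.

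Between platforms DESeq2 called 1 higher and 4 lower in MEFs, against 12.8% of the peaks to which it gave an adjusted p. The replicate block called 2 and 21 in MEFs and 1 and 14 in mESCs, against 29.4% and 21.4% of all peaks. It gave 1 gene with an interaction, against 0.432% of all peaks. With the block, 0 genes had an interaction under RLE size factors or down-sampled depths, and 0 to 2 without 1 library, in fits chosen after seeing the data. The GC offset alone called 0 genes lower in MEFs, where it also called 0 of 61891 peaks lower and 2 higher. Rpl7a was then at 0.0027. With the replicate block added, the counts were 11 and 12 in MEFs (Rpl7a 0.0024) and 7 and 9 in mESCs. Those fits called 12.8% and 8.64% of all peaks. Leaving out 1 library gave 0 to 5 lower in MEFs without the block. With it, in fits chosen after seeing the data, it gave 0 to 2 higher and 10 to 27 lower in MEFs, and 0 to 2 and 6 to 13 in mESCs. The causes were not tested. With 3 libraries per group, SEs of about 0.1 limit what can be called at the smaller changes, and at Rpl10l, whose lowest count was 7 reads, the SE on BGI was 0.31.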
